A study of Mus musculus with 4 samples.

Results

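The genes described here control the step between death receptors and caspases, the proteases that take a cell apart during apoptosis. They are 8 genes: the cellular inhibitors of apoptosis Birc2 and Birc3, the X-linked inhibitor Xiap, the receptor adaptors Traf1 and Traf2, the caspase-8 decoy Cflar (FLIP), and the caspases Casp6 and Casp8. Members were every probe set whose only gene symbol in the platform annotation was one of these names, which gave 17 of the 22626 probe sets on the array that are not controls, 1 each for Birc2, Traf1, Traf2, Casp6 and Casp8, 2 for Birc3, 4 for Cflar and 6 for Xiap.

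As background, IAP proteins carry BIR domains, and those encoded by Birc2, Birc3 and Xiap also have a RING domain that attaches ubiquitin to other proteins. Birc2 and Birc3 proteins are brought to TNF receptors by TRAF2, where they ubiquitinate the kinase RIPK1 and so favour NF-kappaB signalling over death, while XIAP binds and blocks active caspases directly. Caspase-8 starts the cascade when FADD gathers it at a receptor, FLIP competes for the same place, and crosslinking of the IgE receptor on mast cells is itself known to activate NF-kappaB.

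RNA came from mast cells grown from mouse bone marrow, of 2 genotypes: Pac1-/- cells, which lack the dual-specificity MAP kinase phosphatase Pac1 encoded by Dusp2, and wild-type (Pac1+/+) cells. Marrow was from mice aged 8 to 12 weeks and was kept for 4 to 6 weeks in 5 ng/ml interleukin-3, by which time Kit and FceRI were detected on more than 98% of the cells. Cells of both genotypes were loaded with anti-DNP IgE (100 ng/ml) for 18 h and then given the antigen DNP-HSA at 20 ng/ml for 2 h. There were 2 cultures per genotype, numbered replicates 1 and 2 in the labels, with 1 Affymetrix 430A array each and no unstimulated culture among them. The design text calls the cultures independent. The sources used here do not give the strain of the mice or how many of them stood behind a culture.

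Values are linear intensities after quantile normalisation of the 4 arrays. Precision is limited by there being 4 arrays, and in bulk RNA a smaller share of cells and less RNA per cell cannot be told apart. The Dusp2 probe set read 116.9 and 51.6 as deposited in Pac1-/- cells, against 173.7 and 99.4 in wild-type cells. The genotypes overlapped, although the Pac1-/- array was the lower one within each replicate number. The sources used here do not place its probes relative to the deleted part. Mast cell transcripts were bright: 7 of 9 markers reached 100 on every array, and their summed intensity was 45885 and 35925 in Pac1-/- cells, against 43335 and 39959 in wild-type cells. The exceptions were Ms4a2 and Mcpt4. Ms4a2, the FceRI beta chain gene, split by replicate number, at 41.9 and 1502.3 in Pac1-/- cells, against 142.6 and 3261.1 in wild-type cells. The protease gene Mcpt4 was below 100 on all arrays but wild-type replicate 2. Among the 7, the protease gene Tpsb2 read 475.8 on Pac1-/- replicate 2 and at least 5837.6 on every other array. Of 8 macrophage markers 2 reached 100 on every array, Adgre1 at 217 to 250.5 and Cd68. Another 4 reached 100 on no array, C1qa among them with at most 4.7. The summed macrophage level followed the replicate number through Cd68 (5638 and 121 in Pac1-/- cells, 7512 and 118 in wild-type cells, replicates 1 and 2). None of the 7 lymphocyte markers measured reached 100 on any array. Arrays correlated by replicate number more than by genotype, with r = 0.885 and 0.750 within the replicate numbers and 0.468 (Pac1-/-) and 0.437 (wild-type) within the genotypes, across probe sets that are not independent replicates. Because of that split, the difference between the arrays of each replicate number is given beside every pooled one. The GAPDH control had a 3' to 5' signal ratio of 191 on Pac1-/- replicate 2, against 1.36 on Pac1-/- replicate 1 and 0.798 and 0.839 on the wild-type arrays. The beta-actin control ordered the arrays differently, with ratios of 293 and 54.8 on Pac1-/- replicates 1 and 2, against 109 and 1.58 on wild-type replicates 1 and 2. Within each replicate number, however, the Pac1-/- array had the higher ratio by both controls. RNA quality thus ran with genotype, and its part in the genotype differences, those of Birc2 and Birc3 included, was not tested.

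**Figure D1:**
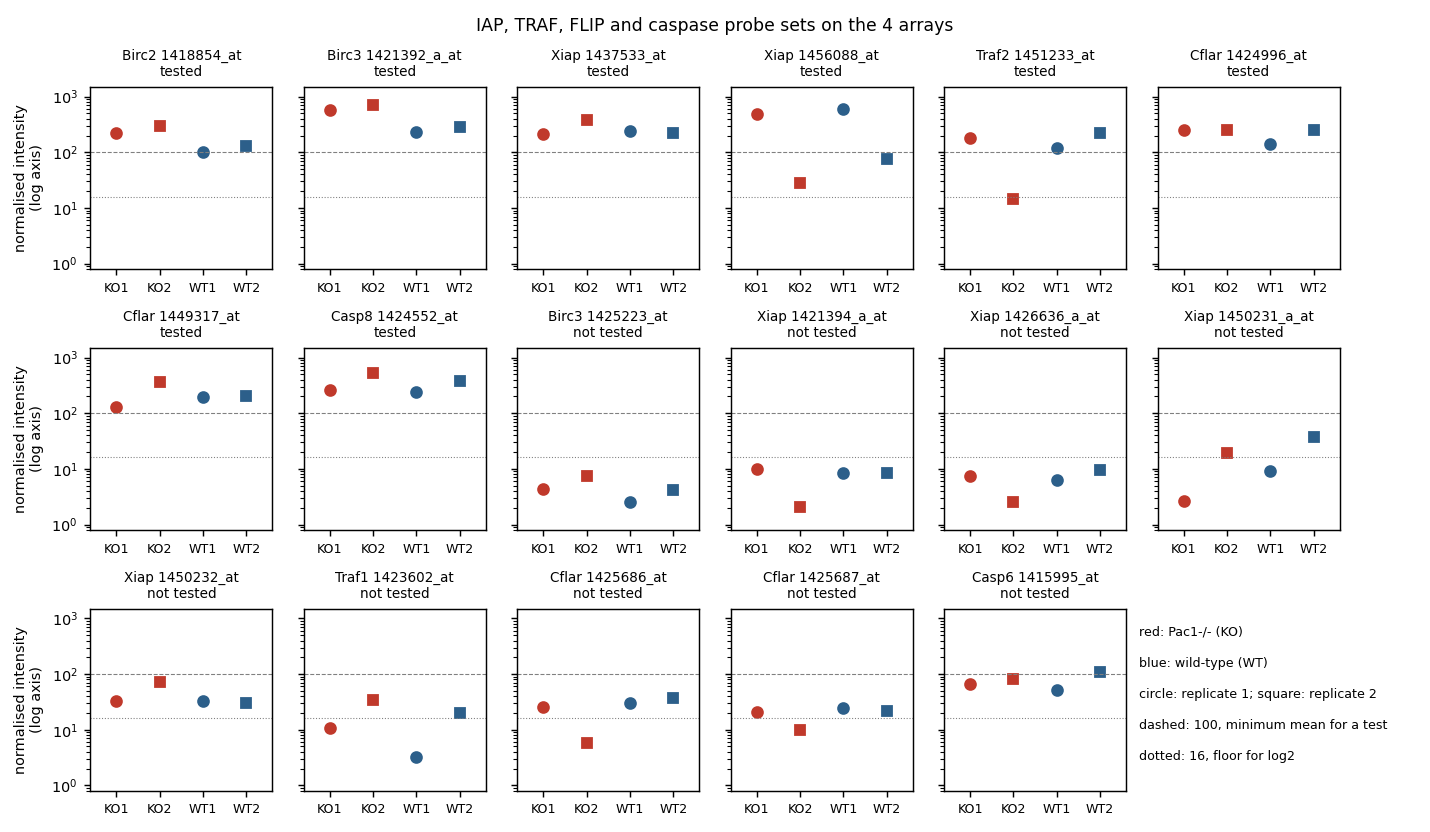
Normalised intensity (log axis) of each of the 17 probe sets on the 4 arrays, 1 panel per probe set, Pac1-/- arrays (KO) in red left of wild-type arrays (WT) in blue. Birc2 and Birc3 1421392_a_at are the tested panels in which both red points lie above both blue ones; the 9 panels marked not tested had a mean intensity below 100.

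A probe set was tested where its mean over the 4 arrays was at least 100. This held for 8 of the 17 probe sets and 6 of the 8 genes, and for 7770 probe sets of the series. Traf1 and Casp6 had no tested probe set. Values below 16 were set to 16 before log2 was taken, and differences are Pac1-/- minus wild-type on that log2 scale.

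Among the tested probe sets, those of the cellular IAP genes were the ones whose signal did not overlap between the genotypes. Birc3, which encodes cIAP2, read 569.6 and 723.7 in Pac1-/- cells (replicates 1 and 2), against 227.9 and 287.3 in wild-type cells. Both Pac1-/- arrays were above both wild-type arrays, and within each genotype the replicates lay close together. The log2 difference was 1.33 ± 0.38 (SE, n = 2 per genotype), or 2.51-fold with a 95% interval of 1.17 to 5.37, with 1.32 for the replicate 1 pair of arrays and 1.33 for the replicate 2 pair. Limma gave an unadjusted p of 0.0291 and a Benjamini-Hochberg adjusted p of 0.866 over all 7770 probe sets, so only the unadjusted test was passed, at place 111 of the 7770.

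Birc2, which encodes cIAP1, read 219.8 and 302.4 in Pac1-/- cells, against 100.8 and 128.6 in wild-type cells. The groups again did not overlap. The log2 difference was 1.18 ± 0.40 (SE, n = 2 per genotype), or 2.26-fold with a 95% interval of 1.02 to 5.03, with 1.13 for the replicate 1 pair and 1.23 for the replicate 2 pair. Limma gave an unadjusted p of 0.0467 and an adjusted p of 0.866, at place 240 of the 7770. Genotype accounted for 93.8% of the sum of squares of Birc3 and 89.2% of that of Birc2, while replicate number accounted for 6.16% and 10.6%. Neither gene was past the unadjusted test once any 1 of the 4 arrays was left out, where limma's unadjusted p lay between 0.0650 and 0.194 and the differences between 0.95 and 1.50. On the values as deposited, Birc3 was at 1.39 (unadjusted p = 0.0336) and Birc2 at 1.09 (unadjusted p = 0.0573), with limma adjusted p = 0.845 for both.

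The second Birc3 probe set, 1425223_at, carried no usable signal. It read 4.3 and 7.5 in Pac1-/- cells and 2.5 and 4.2 in wild-type cells, below the floor on every array, so the Birc3 difference rests on 1 probe set. Birc2 and Birc3 are paralogs, and the extent to which their probes bind each other's transcript was not tested. The accessions behind the tested Birc2 and Birc3 probe sets matched the RefSeq transcripts of the same symbols.

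The Birc2 and Birc3 genes lie next to each other on chromosome 9 in the RefSeq annotation and are read from the same strand. Because they are the members with the same pattern over the arrays, the windows around their annotated starts are shown, 250 bases before and 50 after, from RefSeq on GRCm38.p6. The Birc2 window is chr9:7837008-7837307 and the Birc3 window chr9:7873121-7873420, both on the minus strand and printed 5′ to 3′ along the gene. Capitals mark a cAMP response element, the letters TGACGTCA.
Birc2: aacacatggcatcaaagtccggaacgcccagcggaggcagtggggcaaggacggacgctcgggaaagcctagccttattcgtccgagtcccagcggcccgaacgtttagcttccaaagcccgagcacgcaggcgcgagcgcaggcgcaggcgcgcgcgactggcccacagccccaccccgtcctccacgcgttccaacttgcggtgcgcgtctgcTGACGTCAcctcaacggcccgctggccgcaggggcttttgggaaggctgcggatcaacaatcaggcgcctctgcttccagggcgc
Birc3: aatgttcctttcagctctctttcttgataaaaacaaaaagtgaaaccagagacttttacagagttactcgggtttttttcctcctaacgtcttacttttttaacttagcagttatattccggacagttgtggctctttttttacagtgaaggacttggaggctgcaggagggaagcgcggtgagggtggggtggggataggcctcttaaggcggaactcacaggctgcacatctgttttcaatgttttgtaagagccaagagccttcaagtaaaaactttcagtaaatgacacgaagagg
The element in the Birc2 window begins 35 bases before the annotated start. It was searched for after the Birc2 window had been read, and 1.79% of the 32851 RefSeq windows of this length hold it on either strand. The AP-1 site, TGACTCA on either strand, was in no window of the 8 genes and in 5.20% of all windows. The kappaB consensus was in none of the Birc2 and Birc3 windows, in 1 of the 3 Xiap windows and in 8.46% of all windows. RefSeq lists another Birc2 start nearby, whose window holds none of these motifs. The Birc2 window printed had a GC content of 67.0%, and the Birc3 window 43.0%. These are letter matches in short windows only.

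The genes that flank the Birc2 and Birc3 genes on the chromosome were read as well. Tmem123, on the Birc2 side, had 2 tested probe sets, both with a difference above 0. The brighter one read 668.3 and 426.5 in Pac1-/- cells, against 504.8 and 165.3 in wild-type cells, so its genotypes overlapped, although the Pac1-/- array was the higher one within each replicate number, and the log2 difference was 0.89. The other probe set of Tmem123 differed by 1.89 ± 1.36 (SE, n = 2 per genotype), with 0.91 for the replicate 1 pair and 2.86 for the replicate 2 pair, and its groups overlapped too. Neither Tmem123 probe set was past limma's unadjusted test. Yap1, on the Birc3 side, read 99.8 and 70.1 in Pac1-/- cells, against 81.2 and 63.3 in wild-type cells, and was too dim to test.

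The third IAP gene, Xiap, gave a different picture for each of its 2 tested probe sets. Probe set 1437533_at read 214.6 and 383.8 in Pac1-/- cells, against 243.5 and 220.3 in wild-type cells. The Pac1-/- arrays lay on either side of the wild-type ones. The log2 difference was 0.31 ± 0.46 (SE, n = 2 per genotype; limma adjusted p = 0.914), with -0.18 for the replicate 1 pair and 0.80 for the replicate 2 pair. Without Pac1-/- replicate 2 it was -0.11, and without Pac1-/- replicate 1 it was 0.73.

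Probe set 1456088_at of Xiap split by replicate number. It read 494.6 in replicate 1 and 28.1 in replicate 2 of the Pac1-/- cells, against 607.4 in replicate 1 and 75.2 in replicate 2 of the wild-type cells. Its signal was therefore 17.6 times higher in replicate 1 than in replicate 2 for Pac1-/- cells and 8.08 times higher for wild-type cells, and replicate number held 92.4% of its sum of squares. The genotype difference was -0.86 ± 1.91 (SE, n = 2 per genotype; limma adjusted p = 0.956), but 0.65 when wild-type replicate 1 was left out and 1.21 when Pac1-/- replicate 2 was. In 296 of the 7770 tested probe sets (3.81%), replicate 2 was below replicate 1 in both genotypes by at least the smaller of these 2 gaps. Both tested Xiap probe sets were designed from the same accession in the annotation, so they disagree although both are annotated to the same sequence. Xiap is on the X chromosome, and the sex-linked genes also split by replicate number: the Y-linked Eif2s3y read 287.5 and 1.0 in Pac1-/- cells and 221.2 and 2.1 in wild-type cells, as deposited. The part of that split in the 1456088_at values was not tested.

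The other 4 Xiap probe sets were too dim to test. Probe sets 1421394_a_at and 1426636_a_at were below 10 on all 4 arrays, at no more than 9.8. Probe set 1450231_a_at was below the floor on both replicate 1 arrays and read 19.1 in Pac1-/- and 37.4 in wild-type cells of replicate 2. Probe set 1450232_at read 33.0 and 72.5 in Pac1-/- cells, against 32.4 and 29.9 in wild-type cells, so the Pac1-/- arrays were above the wild-type ones, although the replicate 1 arrays were practically level. No direction for Xiap was shared by its probe sets.

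Traf2, the RING-bearing adaptor that links TNF receptors to the cellular IAPs, turned on a single array. Its probe set read 180.3 and 14.6 in Pac1-/- cells, against 118.2 and 223.8 in wild-type cells. The reading on Pac1-/- replicate 2 was below the floor, and the other 3 arrays read above 100. The log2 difference was -1.60 ± 1.37 (SE, n = 2 per genotype; limma adjusted p = 0.874), made of 0.61 for the replicate 1 pair and -3.81 for the replicate 2 pair. It was 0.15 without Pac1-/- replicate 2, whose 3' to 5' ratio was the highest for GAPDH but not for beta-actin, -3.35 without Pac1-/- replicate 1, and -0.60 with a floor of 64. By beta-actin both replicate 1 arrays had higher ratios. The part of RNA quality in the Traf2 reading was not tested. Traf1, which lacks a RING domain and is known as a target gene of NF-kappaB, was dim, at 10.9 and 34.7 in Pac1-/- cells, against 3.2 and 20.2 in wild-type cells. Both replicate 1 arrays were below the floor, so no size is given for Traf1.

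Cflar, whose long product resembles caspase-8 but has no protease activity, had 2 tested probe sets with different patterns. Probe set 1424996_at read 249.2 and 248.6 in Pac1-/- cells, against 140.8 and 256.6 in wild-type cells. Wild-type replicate 1 was the low one, and the other 3 arrays were close. The log2 difference was 0.39 ± 0.47 (SE, n = 2 per genotype; limma adjusted p = 0.891), with 0.82 for the replicate 1 pair and -0.046 for the replicate 2 pair, and it was -0.044 without wild-type replicate 1. Probe set 1449317_at read 127.8 and 370.6 in Pac1-/- cells, against 194.2 and 201.3 in wild-type cells. Here the wild-type arrays were nearly level, and the Pac1-/- arrays lay below and above them. The difference was 0.14 ± 0.66 (SE, n = 2 per genotype; limma adjusted p = 0.989), with -0.60 for the replicate 1 pair and 0.88 for the replicate 2 pair, and -0.63 without Pac1-/- replicate 2. Thus the probe sets had opposite signs within each replicate number. The remaining Cflar probe sets were dim. Probe set 1425686_at read 25.8 and 5.7 in Pac1-/- cells, against 29.9 and 37.5 in wild-type cells, and 1425687_at read 20.8 and 9.8 in Pac1-/- cells, against 24.4 and 21.7 in wild-type cells. In both, the Pac1-/- arrays lay below the wild-type ones, and Pac1-/- replicate 2 was below the floor.

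Casp8, the initiator caspase of death receptors, read 262.8 and 520.5 in Pac1-/- cells, against 235.9 and 376.0 in wild-type cells. Its genotypes overlapped, but the Pac1-/- array was the higher one within each replicate number, and replicate 2 was above replicate 1 in each genotype. Replicate number held 84.9% of its sum of squares and genotype 12.0%. The log2 difference was 0.31 ± 0.56 (SE, n = 2 per genotype; 95% interval -1.28 to 1.90; limma adjusted p = 0.934), with 0.16 for the replicate 1 pair and 0.47 for the replicate 2 pair. It was -0.024 once wild-type replicate 1 was left out and -0.18 once Pac1-/- replicate 2 was. Casp8 and Cflar are also adjacent protein-coding genes in the RefSeq annotation, on chromosome 1. Casp6, an effector caspase that cleaves nuclear lamins, read 66.7 and 80.6 in Pac1-/- cells, against 50.7 and 106.8 in wild-type cells. The Pac1-/- readings of Casp6 lay between the wild-type ones, and its mean was below the minimum for a test.

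**Figure D2:**
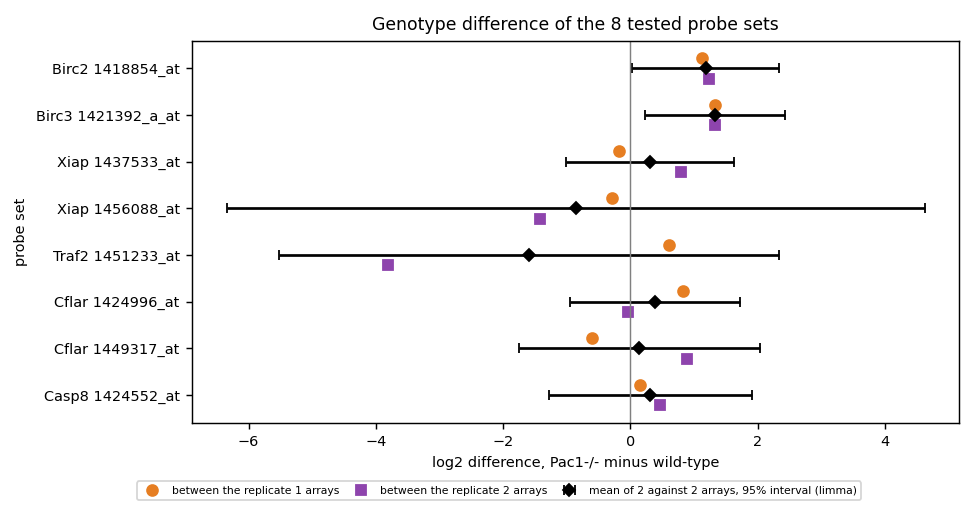
Log2 difference, Pac1-/- minus wild-type, of the 8 tested probe sets. Diamonds are the difference of the means of 2 against 2 arrays with limma's 95% interval, circles the difference between the replicate 1 arrays and squares that between the replicate 2 arrays. The intervals of Birc2 and Birc3 lie above 0, at 0.029 to 2.33 and 0.23 to 2.43, and those of the other 6 probe sets include 0.

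Over all 7770 tested probe sets, 0% had an adjusted p under 0.05 with limma, and none of the 8 tested members had one. The unadjusted threshold of 0.05 was passed by 263 probe sets, 3.38%, and by 2 of the 8 members (25%), Birc2 and Birc3. Both were higher, where 2.25% of all tested probe sets were called higher and 1.13% lower. The 8 genes were chosen with these results known, so the 2 counts cannot be set against each other as a test. By the order of the arrays alone, both Pac1-/- arrays were above both wild-type arrays in 2 of 8 members (25%) and in 24.3% of all tested probe sets, and no member was lower on both, against 13.4% of all; either direction made up 37.7% of all. The members' share was thus near that of the array for higher signal, and below it for either direction. The genotype difference was above 0 in 6 of 8 members and in 52.8% of all tested probe sets, with a median of 0.31 for the members and 0.056 for all. The share of higher probe sets among those past the unadjusted test was 66.5%, but 53.7% on the values as deposited and 91.6% with each array centred on its median. With the replicate block it was 36.5%, and with 1 array left out it lay between 11.8% and 53.0%, so neither direction prevailed over the settings. With median centring all tested probe sets together had a median of 0.66, and Birc3 was at 2.01 and Birc2 at 1.71, both above that median. As deposited, Pac1-/- replicate 2 had a median intensity of 24.5, against 40.6 on Pac1-/- replicate 1 and 49.3 and 48.0 on the wild-type arrays. Centring therefore scaled that array up relative to the others.

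**Figure D3:**
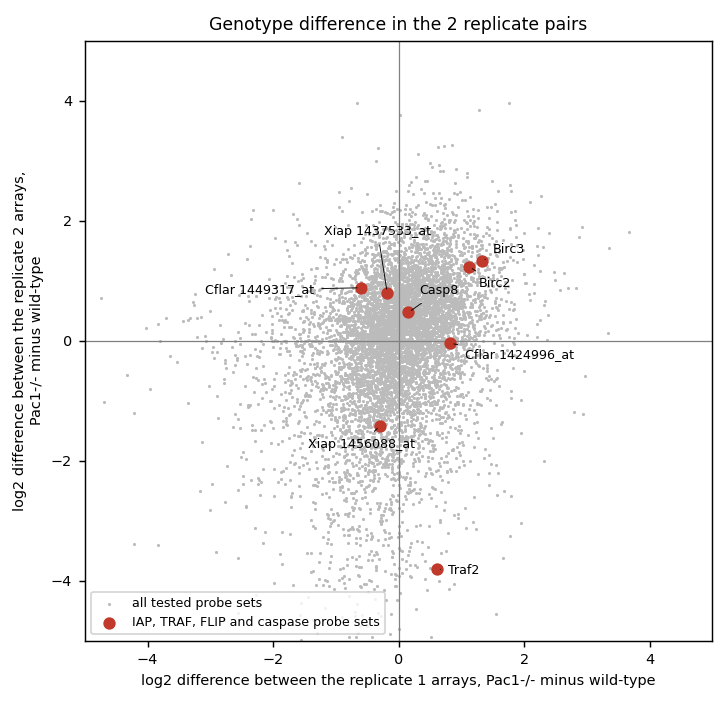
Log2 difference, Pac1-/- minus wild-type, between the replicate 1 arrays (horizontal) and between the replicate 2 arrays (vertical) for all 7770 tested probe sets in grey and the 8 members in red; 27 probe sets lie outside the axes, which end at 5. Birc2 and Birc3 sit side by side in the upper right, and Traf2 sits far below 0 on the vertical axis, at -3.81.

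The sign of the difference was the same in both replicate numbers for 4 of the 8 tested members, namely Birc2, Birc3, Casp8 and Xiap 1456088_at, and for 61.3% of all tested probe sets. In 5 of the 8 members the distance between the replicate numbers was larger than that between the genotypes, against 50.7% of all tested probe sets. Birc2, Birc3 and Traf2 were the exceptions.

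Among 4 arrays many genes share a pattern. Likeness to Birc3 was taken as the root mean square distance of log2 values, each centred on its own mean over the 4 arrays. The nearest of 7084 tested probe sets with 1 symbol were Dcp1a, a factor of mRNA decapping (distance 0.053), the helicase gene Dhx40 (0.068) and Spast, which encodes the microtubule-severing protein spastin (0.075). Birc2 came next, in place 4 at 0.085. In all, 140 probe sets lay within 0.25 of Birc3. The other tested members were farther off, from 0.520 for Cflar 1424996_at to 2.26 for Xiap 1456088_at.

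The other genes of the pathway were taken from 7 lists with 63 genes, of which 53 were on the array with a probe set of their own and 26 were bright enough to test, each by its brightest tested probe set. None of the 26 passed limma's test, either adjusted or at an unadjusted p under 0.05, in either direction. Of these genes 13 were higher and 13 lower in Pac1-/- cells. Their median difference was -0.011, against 0.056 for all tested probe sets. In 8 of the 26 the Pac1-/- arrays were both higher, and in 0 both lower, against 24.3% and 13.4% of all tested probe sets.

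All 4 tested genes on the list of other caspases had a difference above 0, with a median of 0.74, and in 3 of them both Pac1-/- arrays were above both wild-type arrays. Over all tested probe sets 52.8% were above 0 and 24.3% were higher without overlap. Casp1 and Casp9 read below 100 on both wild-type arrays and reached the minimum mean through their Pac1-/- arrays. The minimum thus favoured a higher reading for them, and the counts of this list cannot be set against those shares as a test. Casp1, the inflammatory caspase that matures interleukin-1beta, read 127.0 and 148.6 in Pac1-/- cells, against 85.8 and 46.9 in wild-type cells. Its difference was 1.11 ± 0.47 on the log2 scale (SE, n = 2 per genotype; limma adjusted p = 0.866). Casp9, the initiator caspase of the apoptosome, read 204.3 and 112.7 in Pac1-/- cells, against 80.7 and 81.9 in wild-type cells (0.90 ± 0.46). Casp2 read 270.1 and 323.4 in Pac1-/- cells, against 193.6 and 202.7 in wild-type cells (0.58 ± 0.35). None of these 3 was past the unadjusted test.

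Of the other BIR-domain genes, 3 of 4 tested had a difference above 0 (median 0.32). Birc6, which encodes a very large ubiquitin-conjugating IAP, read 368.4 and 212.4 in Pac1-/- cells, against 206.9 and 84.1 in wild-type cells (1.08 ± 0.65), and Naip5, an inflammasome receptor for flagellin, read 126.2 and 209.2 in Pac1-/- cells, against 100.3 and 113.5 in wild-type cells (0.61 ± 0.44). Naip6 overlapped, at 0.030 ± 0.57, with 0.53 for the replicate 1 pair and -0.47 for the replicate 2 pair. The Naip genes are near-identical paralogs, and their probe sets may read each other's transcripts. Survivin, encoded by Birc5, followed the replicate number, at 22.7 and 237.3 in Pac1-/- cells, against 45.2 and 129.2 in wild-type cells; it lies outside the rule for named genes and was chosen after its values were seen.

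At the receptor, 2 of 10 listed genes were tested. Tnfrsf1b, the TNF receptor that binds TRAF2 without a death domain, read 236.3 and 261.5 in Pac1-/- cells, against 140.0 and 146.9 in wild-type cells. These groups did not overlap, and the log2 difference was 0.79 ± 0.35 (SE, n = 2 per genotype; limma unadjusted p = 0.0886, adjusted p = 0.866), with 0.76 and 0.83 between the arrays of replicates 1 and 2. The ligand Tnf differed by -0.025 ± 0.73, with opposite signs in the replicate numbers. Among adaptors and kinases of the receptor complex, 2 of 7 were higher and 5 lower (median -0.065). Of the 5 lower, Sharpin and Map3k7, outside the rule for named genes, each had another tested probe set above 0, at 1.59 and 0.052. Tab2, an adaptor of the kinase TAK1, was at 0.75 ± 0.38 by its brightest probe set but at -1.02 by its other one. The necroptosis kinase gene Ripk3 was at -0.57 ± 0.46, and Rbck1, which encodes HOIL-1 of the linear ubiquitin ligase, at -0.67 ± 0.86. For Rbck1 the replicate 1 pair was at 0.83 and the replicate 2 pair at -2.17.

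Both tested genes among the other TRAFs were below 0, Traf5 at -0.11 ± 0.68 and Traf7 at -0.47 ± 0.81. Each had opposite signs in replicates 1 and 2, Traf5 at -0.80 and 0.58 and Traf7 at 0.86 and -1.81. Like Traf2, Traf7 was low on Pac1-/- replicate 2, at 63.3 against 218.3 on Pac1-/- replicate 1. Of the IAP antagonists and the apoptosome, Diablo, the mitochondrial antagonist of IAPs, was level over the 4 arrays, at 217.5 and 207.7 in Pac1-/- cells and 206.8 and 212.1 in wild-type cells (0.022 ± 0.34). Cytochrome c, encoded by Cycs, split by replicate number, at 5.2 and 1784.8 in Pac1-/- cells, against 23.8 and 1195.2 in wild-type cells. Of 5 tested caspase substrates and nucleases 1 was higher, the actin-severing Gsn (0.25 ± 0.36), and 4 were lower, among them the lamin gene Lmna (-0.77 ± 0.73) and the chromatin condensation factor Acin1 (-0.55 ± 0.78). Gsn had other probe sets of either sign. Rock1, outside the rule for named genes, was counted as lower at -1.03 ± 3.18, but its other tested probe sets were at 0.52 and 1.05. For Lmna and Acin1 the replicate 1 arrays had the opposite sign to the mean, at 0.47 and 0.78. The other tested Acin1 probe set was at -1.075, with the same sign in replicates 1 and 2 (-0.60 and -1.545). That of Lmna was at -0.78.

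**Figure D4:**
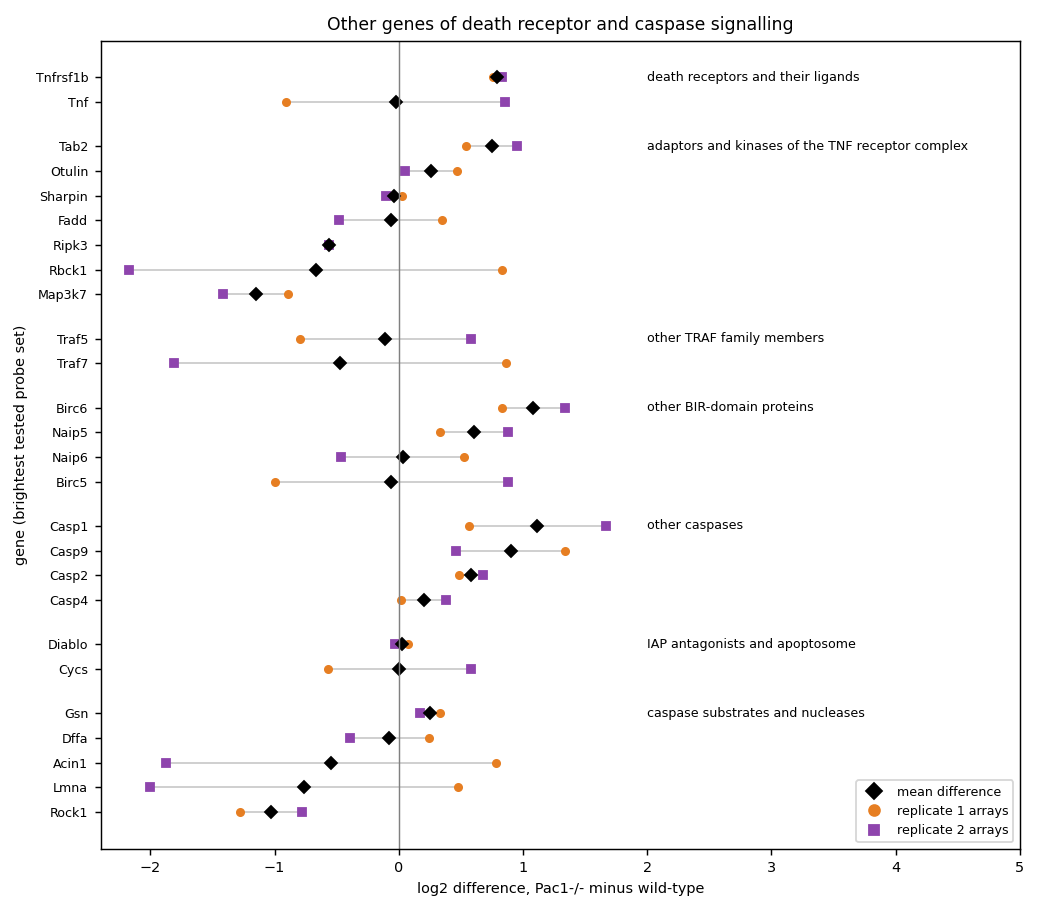
Log2 difference, Pac1-/- minus wild-type, of the 26 tested genes on the 7 pathway lists: diamonds for the means of 2 against 2 arrays, circles for the replicate 1 arrays and squares for the replicate 2 arrays. All 4 genes listed as other caspases lie right of 0, and Rbck1, Traf7, Acin1 and Lmna show replicate 2 values far below their replicate 1 values.

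**Figure D5:**
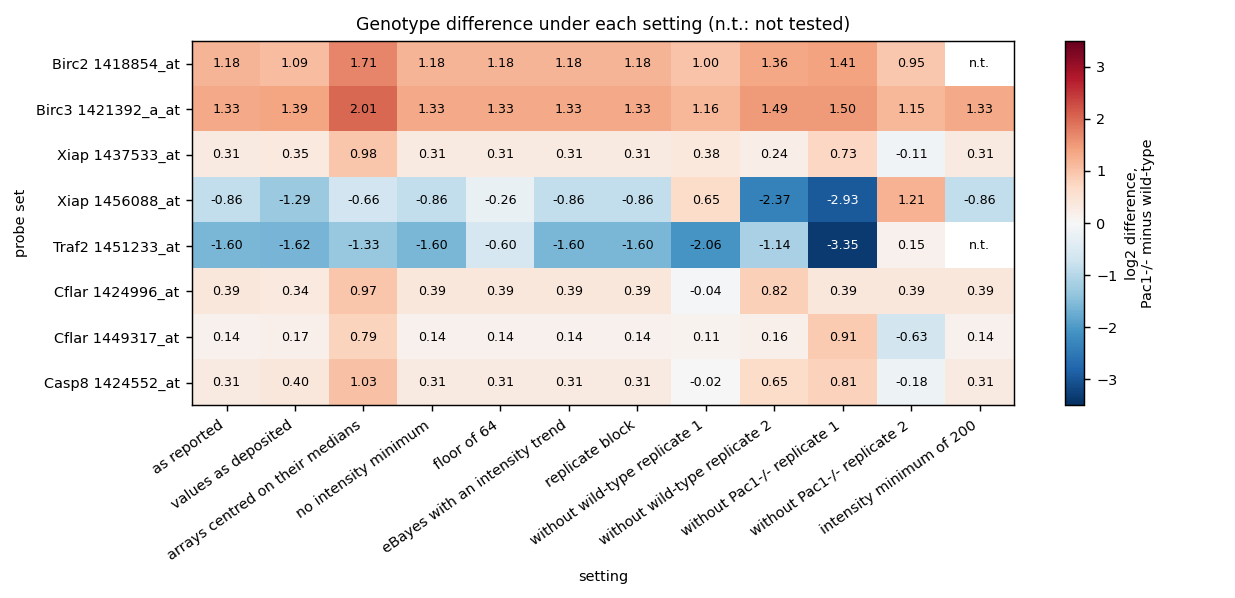
Log2 difference, Pac1-/- minus wild-type, of the 8 tested probe sets (rows) under each setting of the processing (columns); n.t. marks a probe set not tested at a minimum of 200. Birc2 and Birc3 stay above 0 in each setting shown for them, between 0.95 and 2.01, while the other 6 probe sets change sign in at least 1 setting that leaves out an array.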

How the data were processed

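RNA (500 to 1000 ng) was amplified and hybridised as biotinylated cRNA, per the labels' protocols. The authors deposited linear intensity values, 1 per probe set and array; the submitters' processing notes name MAS5. The design text describes RMA, eBayes of Limma 1.3.12 and an intensity minimum of 100; RMA values were not used here.

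Without the 64 controls, 22626 probe sets remained: 20380 with 1 gene symbol, 691 with several and 1555 with none; no probe set with several symbols names a member. Arrays were quantile normalised, values floored at 16 and log2 taken. Probe sets with a mean of at least 100 were tested with limma 3.58.1 in R 4.3.3 (lmFit and eBayes, genotype only, two-sided, 2 residual and 1.71 prior degrees of freedom), and p-values adjusted over all 7770. The steps were tested on simulated data with independent noise on each array. Those data held no split by replicate number, so the test does not cover the split seen here. With 2 arrays a side, no exact permutation p can be under 0.333, so none was computed. The p-values measure the spread between these cultures, much of which follows the replicate number. Figures used matplotlib 3.10.9 under Python 3.11.15.

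The members, lists and alternatives were chosen with earlier results of these data known. Named genes were all members, the 3 genes per list with the lowest p, and the 3 nearest to Birc3. Birc5, Rock1, Sharpin and Map3k7 were named outside that rule, after their values were seen. The probe annotation can be old. All 8 genes matched RefSeq windows.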

Additional observations from a re-analysis of the deposited data

How the results depend on the processing

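Results were recomputed on the values as deposited, after centring on array medians, with no intensity minimum, a minimum of 200 or one applied after the adjustment, with a floor of 64, an eBayes trend or a replicate block, and without each array. The count of probe sets with a limma adjusted p under 0.05 was 0 in each. Past the unadjusted test there were 1762 probe sets with no minimum, 110 with a minimum of 200, 899 with the replicate block and 79 to 408 with an array left out, against 263. Members past it numbered 2 (Birc2 and Birc3) with no minimum, the floor of 64, the trend and the replicate block, 1 (Birc3) as deposited and with centring, and 1 (Birc3) with a minimum of 200, where Birc2 was not tested. With an array left out they numbered 0 to 1, the 1 being Traf2 without Pac1-/- replicate 1. Same-numbered arrays deviated together from their genotype means (r = 0.751 across probe sets), but the labels state no pairing and 2 pairs do not establish one. No member passed the adjusted test with the block (Birc3 at 0.377, Birc2 at 0.414).

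Without 1 array, the differences ranged from -0.11 to 0.73 for Xiap 1437533_at, -2.93 to 1.21 for Xiap 1456088_at, -3.35 to 0.15 for Traf2, -0.044 to 0.82 for Cflar 1424996_at, -0.63 to 0.91 for Cflar 1449317_at and -0.18 to 0.81 for Casp8, and so changed sign. Birc2 ranged from 0.95 to 1.41 and Birc3 from 1.15 to 1.50. In those fits a lone array is set against 2, and part of the difference between replicate numbers enters. No sign changed under the other alternatives. Intensities near background limit the 9 dim probe sets, whose values below the floor have no order.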
